A study of Tegula funebralis with 16 samples.

Results

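The libraries described here come from unheated black turban snails, Chlorostoma (Tegula) funebralis, a grazing snail of Pacific rocky shores, collected south and north in California. They were chosen by their labels: the 4 southern control libraries, 2 from Aliso Beach and 2 from La Jolla, set against the 4 northern control libraries, 2 from Slide Ranch and 2 from Pigeon Point. They are 8 of the 16 libraries of the study, and the other 8 came from heated snails of the same sites. Control snails spent 5.5 hours in air at 15 °C in an incubator, and heated snails were warmed from 15 °C to 34 °C within the same 5.5 hours. Whole animals were ground and sequenced as RNA, so every value mixes all organs, and fewer cells of a type cannot be told apart from less RNA per cell. The labels give neither the sex of the snails nor how many animals entered a library, so the p-values measure the spread between libraries. In the main test these are the 2 libraries of a site and treatment, so the spread between sites is left out.

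Some background helps in reading the transcripts. Vitellogenin is the precursor of egg yolk, and vitelline envelope proteins with a zona pellucida domain form the coat of a mollusc egg. The MCM helicase, with CDC45, opens the double helix so that DNA can be copied, and mitotic proteins such as cyclin B and MAD2 then steer chromosome separation. Heat shock proteins HSP70 and HSP90 hold other proteins in shape, and the CCT chaperonin folds actin and tubulin.

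Each transcript is an assembled contig with an identifier that begins with SR, the letters that titles use for Slide Ranch, and several contigs may belong to 1 gene. Values are normalised read counts. Control libraries held 17594009 to 23320565 reads. Of 15903 contigs, 14444 had a mean of at least 10 over all libraries and were tested, and 6599 carry no name. SR_contig_83, annotated as a senescence-associated protein, took 17.1% of the reads of La Jolla control 1 and 16.6% of those of Pigeon Point control 1, and 1.58% to 6.80% in the other 6 control libraries. The first principal component of the control libraries, with 46.4% of the variance, set these 2 libraries apart from the other 6. The second component, with 16.4%, was positive in all 4 southern libraries (0.217 to 0.523) and negative in all 4 northern ones (-0.214 to -0.450). The first libraries of La Jolla and Pigeon Point, control and heated, are called the 4 libraries that stand apart, and counts are given also with a term for them in the fit.

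Southern controls were compared with northern ones to ask which transcripts differed between regions without heat. Vitellogenin, 4 contigs of the replication helicase, a nuclear pore protein and sialate O-acetylesterase were higher in the south, while a failed axon connections homolog and a tc1 transposase were lower. In limma, which pooled the spread over all 16 libraries, 22 contigs were higher and 16 lower at an adjusted p under 0.05, 38 in all or 0.263% of those tested (0.152% higher and 0.111% lower). With a term for the 4 libraries that stand apart, 509 were higher and 276 lower, 5.43% of those tested, and all of the 38 were among them. The term left the regional log2 differences as they were and changed the estimate of their spread. Both fits take libraries as the unit. Their error holds the spread between the 2 libraries of a site and treatment, and not that between the sites of a region. With site as a random effect, limma used a correlation of 0.152 between libraries of a site, shared by all contigs. Libraries stayed the unit in that fit too, so it is no test with sites as replicates. It called 5 of the 38 and nothing else. They were the failed axon connections homolog (SR_contig_7850_C3.1), MCM2 (SR_contig_28663), a contig like a mussel foot protein (SR_contig_14338_C3.1) and 2 contigs of unknown function (SR_contig_2203_C3.1 and SR_contig_83513).

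Whether both sites of a region agreed was read from the site means and from the single libraries. Of the 38 called contigs, 28 had both southern site means on the same side of both northern site means, 17 of them higher and 11 lower. In 23 of the 38, all 4 southern libraries lay on the same side of all 4 northern libraries, against 6.27% of all tested contigs. The other 10 of the 38 had 1 site that lay apart from the remaining 3. It was Aliso Beach for 4, Slide Ranch for 3, Pigeon Point for 2 and La Jolla for 1. Among all tested contigs, 35.1% had separate site means by region. The 38 were called from the regional difference in these same libraries, which by itself favours agreement. The shares of the 38 therefore describe them and are no test of agreement.

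Vitellogenin (SR_contig_446) had 60386 and 60542 normalised counts in the Aliso Beach controls and 18099.5 and 33088 in the La Jolla controls, against 7757 and 5645 in the Slide Ranch controls and 7884 and 4635 in the Pigeon Point controls. The 2 northern sites lay close together, every southern library was above every northern one, and Aliso Beach was above La Jolla. The log2 difference was 2.60 ± 0.41 (SE; limma, adjusted p = 0.0295), made up of 3.19 for Aliso Beach minus Slide Ranch and 2.02 for La Jolla minus Pigeon Point, and only the first passed alone (adjusted p = 0.0497 and 0.607 in limma).

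The egg coat followed with smaller differences. A vitelline envelope contig with zona pellucida domain 6 (SR_contig_1028_C3.2) had 30847 and 36374 normalised counts at Aliso Beach and 25611 and 22554 at La Jolla, against 17939 and 17901 at Slide Ranch and 14655 and 13069 at Pigeon Point. The groups did not overlap, and the log2 difference of 0.85 ± 0.17 (SE) passed with the term for the 4 libraries (adjusted p = 0.0061 in limma) but not without it (adjusted p = 0.0851). A domain 10 contig (SR_contig_594) averaged 69690.2 ± 7105 normalised counts in southern controls and 43430.0 ± 3888 in northern controls (SD, n = 4 each). Nanos-like protein (SR_contig_967), a germline regulator of translation, averaged 1499 ± 236 in southern and 796 ± 259 in northern controls (SD, n = 4 each). A vitellogenin receptor contig (SR_contig_13590), which takes yolk into the egg, was 0.73 higher (log2) with the term, while another receptor contig (SR_contig_477) had a log2 difference of -0.30 and did not pass.

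Over the list of yolk, egg coat and ovary names, 1 of 35 tested contigs passed, and it was higher, against 0.152% of all tested contigs. With the term for the 4 libraries 16 of 35 were higher and 0 lower, against 3.52% and 1.91% of all tested contigs. Without the 4 libraries 16 of 35 were higher too, against 2.67% of all tested contigs. In 12 of the 35 every southern library lay above every northern one, which held for 3.67% of all tested contigs, and in 0 every one lay below, against 2.6%. The list's median log2 difference was 0.57, with 0.58 for Aliso Beach minus Slide Ranch and 0.60 for La Jolla minus Pigeon Point, against -0.01 for all tested contigs. Its summed normalised counts ran from 348655 to 477954 in southern controls and from 222795 to 330371 in northern controls. Of 44 testis and sperm contigs, limma, edgeR and DESeq2 called 0 each. In limma 4 had an unadjusted p under 0.05, against 9.25% of all tested contigs, and 1 was higher with the term, against 3.52%. The median of the testis and sperm list was 0.13, and its summed counts were 23263 to 35131 in southern and 24858 to 25102 in northern controls. Whether the sex or breeding state of the snails differed between libraries was not tested, since the labels do not give it.

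**Figure D1:**
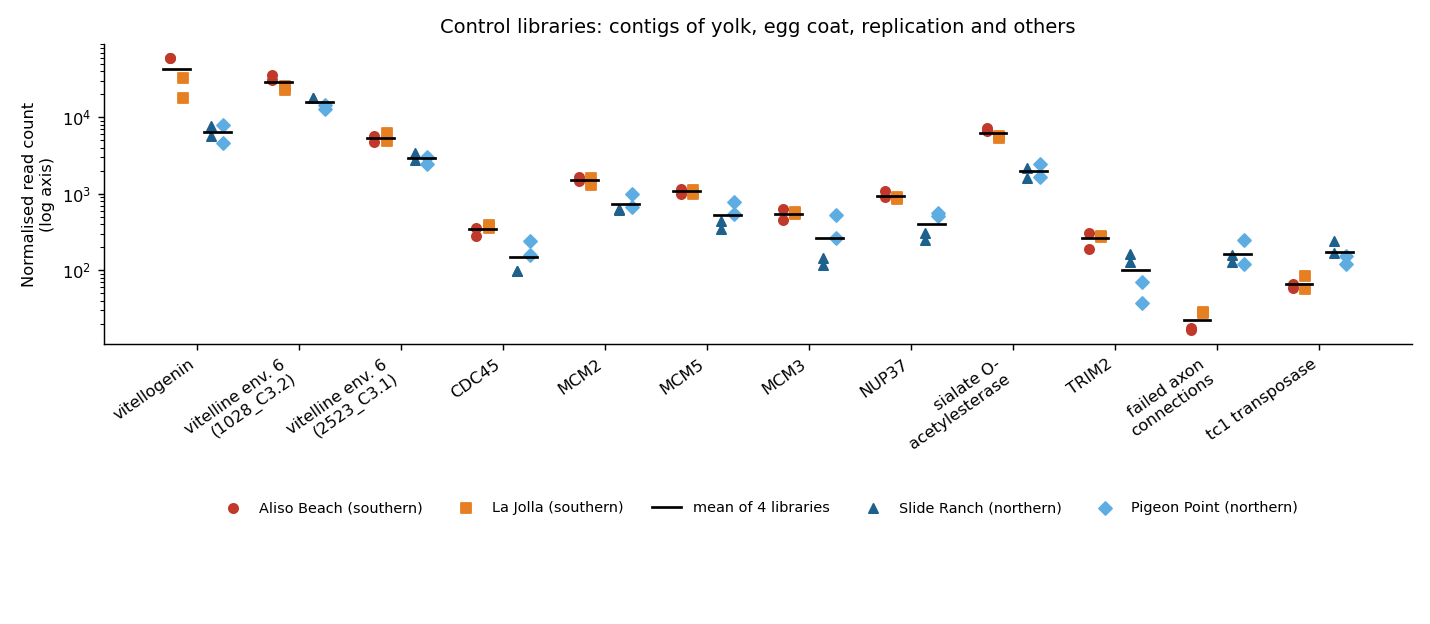
Normalised read counts on a log axis for 12 contigs in the 8 control libraries, southern sites left and northern sites right within each contig, 2 points per site, and a black bar for the mean of 4 libraries. Vitellogenin reaches 60542 at Aliso Beach, and for MCM3 the northern library Pigeon Point control 2 (534 normalised counts) lies among the southern libraries.

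Of 37 tested contigs of DNA replication 4 passed in limma, all higher in the south, against 0.152% of all tested contigs. With the term for the 4 libraries 16 passed, all higher, against 3.52% of all tested contigs, and without the 4 libraries 14 were higher, against 2.67%. The list's median log2 difference was 0.60. All 4 called contigs belong to the helicase: CDC45 (SR_contig_38225), MCM3 (SR_contig_137240), MCM5 (SR_contig_26730) and MCM2 (SR_contig_28663), with log2 differences of 1.29, 1.30, 1.07 and 1.06.

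MCM2 had 1646 and 1463 normalised counts at Aliso Beach and 1318 and 1587 at La Jolla, against 619.6 and 632 at Slide Ranch and 675 and 992 at Pigeon Point. CDC45, which joins the MCM ring to make the working helicase, had 359.8 and 280.3 at Aliso Beach and 386 and 359.6 at La Jolla, against 98.3 and 98.9 at Slide Ranch and 159.7 and 244 at Pigeon Point. Neither contig overlapped between regions, and in both the lowest levels were those of Slide Ranch. MCM3 overlapped, because Pigeon Point control 2 had 534 normalised counts and Aliso Beach control 2 had 456. The adjusted p in limma was 0.0165 for MCM2, 0.0152 for CDC45, 0.0355 for MCM5 and 0.0478 for MCM3. None of these passed when limma was fitted to control libraries only (adjusted p = 0.136, 0.134, 0.145 and 0.213 in the same order).

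Other contigs of the replication machinery passed with the term for the 4 libraries but not in limma over all 16 libraries without it. DESeq2, which had no such term, called 10 contigs of the list, all higher, where it called 214 higher of all 14444 tested contigs. MCM6 (SR_contig_20491) averaged 603 ± 181 normalised counts in southern controls and 333 ± 101 in northern controls (SD, n = 4 each). Replication factor C subunit 4 (SR_contig_36163), part of the clamp loader, averaged 347 ± 37.2 in southern and 177 ± 41.7 in northern controls, and its clamp PCNA (SR_contig_28245) averaged 1799 ± 209.6 in southern and 1233 ± 236 in northern controls (SD, n = 4 each). The catalytic subunit of DNA polymerase delta (SR_contig_4647_C3.1) averaged 684 ± 81.2 in southern and 417 ± 69.3 in northern controls (SD, n = 4 each). These 4 passed with the term and did not overlap between regions. Replication factor C subunit 3 (SR_contig_27533) and a timeless contig (SR_contig_21934), a protein of the replication fork, had log2 differences of -0.02 and -0.45 and did not pass. Origin recognition complex subunit 3, which marks where copying starts, has 2 contigs, of which SR_contig_68498 was higher by 0.75 (log2) with the term and SR_contig_10779_C3.1 had a log2 difference of -0.70 and did not pass. In 15 of the 37 contigs all southern libraries lay above all northern ones, against 3.67% of all tested contigs, and in the timeless contig all lay below. Library by library, the median deviation of the list from the mean of the 8 controls was 0.14 to 0.43 (log2) in the southern libraries. It was -0.62 to -0.36 in both Slide Ranch libraries and Pigeon Point control 1, and 0.09 in Pigeon Point control 2. By site pair, the list medians were 0.85 for Aliso Beach minus Slide Ranch and 0.43 for La Jolla minus Pigeon Point.

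Of 44 mitosis and cell cycle contigs limma called 0, edgeR 0 and DESeq2 6, where DESeq2 called 336 of all 14444 tested contigs. In limma 12 had an unadjusted p under 0.05, against 9.25% of all tested contigs. With the term for the 4 libraries 12 were higher and 0 lower, against 3.52% and 1.91% of all tested contigs, and without these libraries 5 were higher, against 2.67%. Among the 12 higher with the term, MAD2 (SR_contig_7367), which holds division until chromosomes are attached, averaged 511 ± 33.2 normalised counts in southern and 257 ± 83.1 in northern controls (SD, n = 4 each). Aurora kinase A (SR_contig_16253) averaged 1816 ± 163 in southern and 997 ± 417 in northern controls, and cyclin B (SR_contig_11053) averaged 2329.8 ± 416 in southern and 1318 ± 333 in northern controls (SD, n = 4 each). The list median was 0.41, with 0.51 for Aliso Beach minus Slide Ranch and 0.23 for La Jolla minus Pigeon Point.

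**Figure D2:**
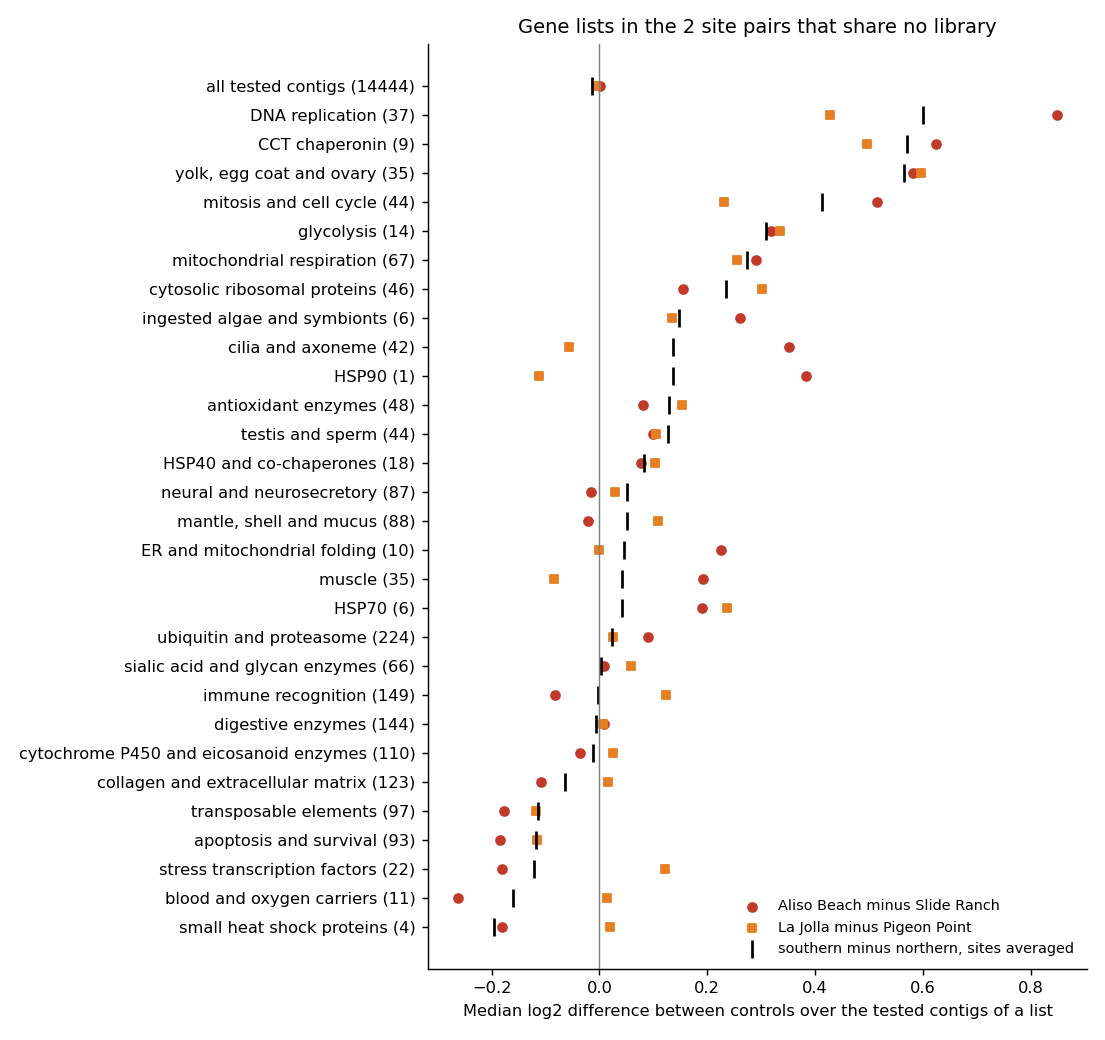
Median log2 difference over the tested contigs of each gene list (number of contigs in brackets) for Aliso Beach minus Slide Ranch (circles), La Jolla minus Pigeon Point (squares) and southern minus northern controls (bars), with all tested contigs in the top row. DNA replication, CCT chaperonin and yolk, egg coat and ovary lie farthest right in both site pairs. Several lists have medians of opposite signs in the pairs, among them cilia (0.35 and -0.06), muscle (0.19 and -0.08), HSP90 (0.38 and -0.11) and stress transcription factors (-0.18 and 0.12).

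Other called contigs with agreeing sites came from several functions. NUP37 (SR_contig_17914_C3.1), a subunit of the nuclear pore, had 913 and 1073 normalised counts at Aliso Beach and 896 and 854 at La Jolla, against 303 and 248 at Slide Ranch and 558 and 506 at Pigeon Point. The regions did not overlap, and Slide Ranch was lowest. Its log2 difference of 1.28 ± 0.14 (SE; limma, adjusted p = 0.00428) stayed called when any single library was left out. In limma it also stayed called without La Jolla (adjusted p = 0.00908) or Pigeon Point (0.00395). It was not called without Aliso Beach (0.165) or Slide Ranch (0.474, log2 difference 0.81). Nor was it called with control libraries only (0.0536) or with site as a random effect (0.246). Sialate O-acetylesterase (SR_contig_17551), which strips acetyl groups from sialic acids, had 7221, 6588, 5428 and 5681 in southern controls, Aliso Beach first, against 1630.0, 2204, 2480.3 and 1684 in northern controls, Slide Ranch first. Tripartite motif protein 2 (SR_contig_226_C3.1), a ubiquitin ligase in mammals, had 311, 188, 271 and 283 in southern controls, against 129, 162, 71.2 and 36.9 in northern controls in the same site order. Both were apart by region, with log2 differences of 1.65 and 1.57. The c2orf29 homolog (SR_contig_2771), in human a subunit of a complex that shortens mRNA tails, was also higher by 1.02 (log2), with Slide Ranch at 319 normalised counts near the southern site means of 396 at Aliso Beach and 424 at La Jolla, and Pigeon Point at 127.

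A contig that resembles the mussel adhesive foot protein 1 (SR_contig_14338_C3.1) had 43.8, 48.8, 94.5 and 38.3 normalised counts in southern controls, against 5.22, 5.17, 7.26 and 8.19 in northern controls. It did not overlap, and the sites of each region lay close together. The uncharacterised contig SR_contig_6330_C3.1 averaged 4919.9 ± 1305 in southern and 1203 ± 533 in northern controls (SD, n = 4 each).

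Among contigs lower in the south, the failed axon connections homolog (SR_contig_7850_C3.1), named for a fruit fly gene of axon growth, had 16.3 and 17.7 normalised counts at Aliso Beach and 28.6 and 27.2 at La Jolla, against 158 and 127 at Slide Ranch and 251 and 120.1 at Pigeon Point. Every southern library was far below every northern one, and the log2 difference was -2.79 ± 0.39 (SE; limma, adjusted p = 0.0152). The contig SR_contig_2203_C3.1, which has no name, had 3.71, 2.53, 0 and 7.65 in southern controls, against 122, 39.1, 180.1 and 176 in northern controls. SR_contig_359_C3.1, named only as a nematode protein, had 253 and 280.3 at Aliso Beach and 3.29 and 40.8 at La Jolla, against 2200.0 and 3183 at Slide Ranch and 855 and 1019.7 at Pigeon Point. In both the regions did not overlap, and in SR_contig_359_C3.1 La Jolla lay well below Aliso Beach. An ankyrin repeat contig (SR_contig_406_C3.2), chosen after its values were seen, had 41.5, 42.9, 0 and 4.25 in southern controls, against 63.5, 109, 53.7 and 79.9 in northern controls.

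Of 97 tested contigs of transposable elements 1 was lower in limma, against 0.111% of all tested contigs. With the term for the 4 libraries 4 were lower, against 1.91% of all tested contigs, and 0 higher. The called tc1 transposase (SR_contig_578_C3.2), an enzyme that cuts and pastes its own gene, had 66.0, 58.1, 84.6 and 56.1 normalised counts in southern controls, against 169.7, 243, 152 and 121 in northern controls. In 6 of the 97 all southern libraries lay below all northern ones and in 0 above, against 2.6% and 3.67% of all tested contigs. The list median was -0.11.

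In several called contigs the averaged difference came from 1 site. Acyl-binding protein (SR_contig_4897) had 8.90 and 15.2 normalised counts at Aliso Beach and 2533 and 4352 at La Jolla, against 4798 and 4809 at Slide Ranch and 3071 and 3346 at Pigeon Point. V-type proton ATPase subunit d (SR_contig_14447), a part of the pump that acidifies organelles, had 0.742 and 0.842 at Aliso Beach, which is 1 read in each library, and 270.2 and 154 at La Jolla, against 122.7 and 153 at Slide Ranch and 183 and 117 at Pigeon Point. Aliso Beach was far below the other 3 sites in both, while La Jolla was in or near the northern range. LIM domain-binding protein 2-like (SR_contig_1832), an adaptor of transcription factors, had 350.2 and 428 at Aliso Beach and 603 and 338 at La Jolla, against 0 and 0 at Slide Ranch and 543 and 502 at Pigeon Point. With 3 reads per library as the floor for a count of 0, Aliso Beach was at least 161-fold higher than Slide Ranch. The contig annotated as 4-aminobutyrate mitochondrial (SR_contig_1872_C3.1) had 1039 and 821 at La Jolla and 8053 and 7687 at Aliso Beach, against 5322 and 5883 at Slide Ranch and 8283 and 6690.3 at Pigeon Point. For these 4, La Jolla minus Pigeon Point differed from Aliso Beach minus Slide Ranch in limma (adjusted p = 1.05e-05, 0.000624, 1.05e-05 and 0.00388, in the order given). That test called 21 contigs, 0.145% of those tested. The 4 were picked from these same libraries because their sites did not agree, so their p-values describe them and are no separate test.

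Agreement by site means can also hide a single site. Of the contigs counted as agreeing, collagen alpha-6 (SR_contig_234), a fibre of the extracellular matrix, had 24.7 and 7.51 normalised counts at Pigeon Point where the other 6 control libraries had at least 4409.6. SR_contig_6422_C3.1 was at 0 in both Pigeon Point libraries, and La Jolla was at least 34.8-fold higher by the same floor. Leukotriene B4 12-hydroxydehydrogenase (SR_contig_5197_C3.1), which breaks down an inflammatory lipid, had 69.7 and 113.7 at Aliso Beach, where La Jolla control 1 at 429 lay inside the northern range of 426 to 667. Without Pigeon Point, and without Aliso Beach for the last, the log2 differences of these 3 were 0.17, 0.42 and -0.41. Further contigs counted as agreeing also shrank without 1 site. SR_contig_65112, a hypothetical protein, went from 1.93 to 0.43 without Aliso Beach. The ankyrin repeat contig (SR_contig_406_C3.2) went from -2.91 to -0.79 without La Jolla. The c2orf29 homolog (SR_contig_2771) went from 1.02 to 0.35 without Pigeon Point, and MCM3 (SR_contig_137240) from 1.30 to 0.54 without Slide Ranch. Tripartite motif protein 2 (SR_contig_226_C3.1) went from 1.57 to 0.83 without Pigeon Point. It was not called in limma with control libraries only (adjusted p = 0.166).

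**Figure D3:**
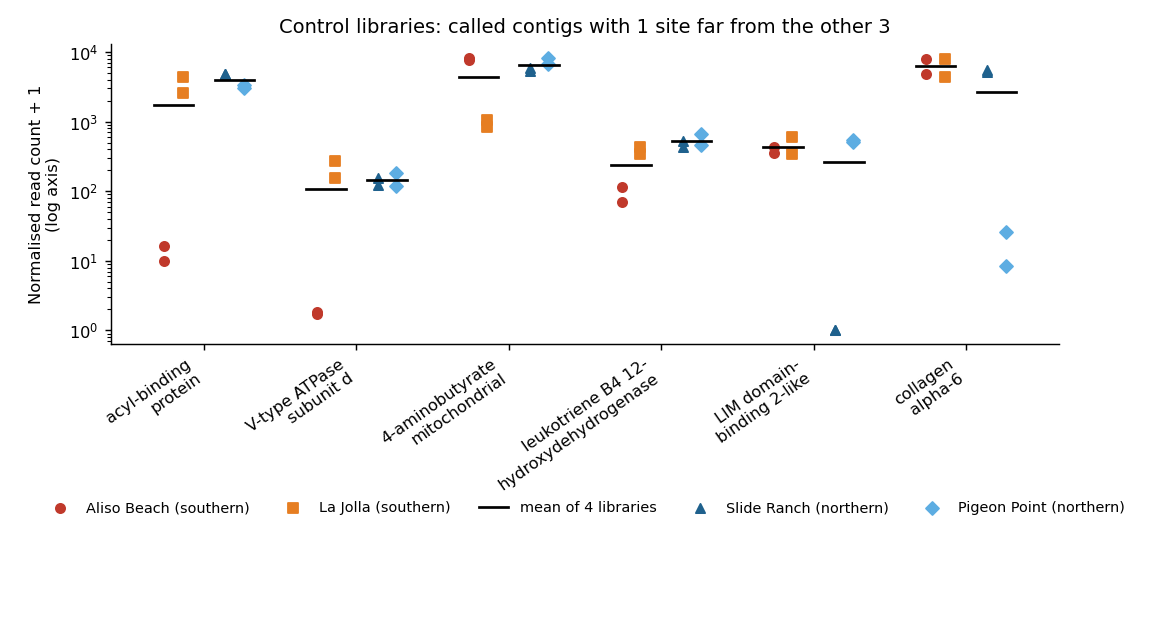
Normalised read counts plus 1 on a log axis for 6 called contigs in the control libraries, southern sites left and northern sites right, with the mean of 4 libraries as a black bar. Aliso Beach lies far below the other sites for acyl-binding protein, V-type ATPase subunit d and the leukotriene enzyme, La Jolla for 4-aminobutyrate mitochondrial, Slide Ranch for LIM domain-binding 2-like (0 in both libraries) and Pigeon Point for collagen alpha-6.

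Taken by site pairs that share no library, Aliso Beach minus Slide Ranch gave 49 called contigs in limma (0.339% of those tested) and La Jolla minus Pigeon Point gave 19 (0.132%). The lists shared 2 contigs, SR_contig_30684 and SR_contig_4473_C3.1, and both had opposite signs in the pairs. Within a region, limma called 20 contigs for La Jolla minus Aliso Beach and 20 for Pigeon Point minus Slide Ranch (0.138% each). With the term for the 4 libraries the site pairs had 497 (3.44%) and 96 (0.665%) called contigs, and 15 were called with the same sign in both. These are 3.02% of the first list and 15.6% of the second, and 3 more contigs were called with opposite signs. Among the 15 are MCM2, sialate O-acetylesterase, the failed axon connections homolog, the foot protein contig and sorting nexin 14 (SR_contig_31115), a protein of membrane sorting, at 1.25 and 0.83 (log2). The pairs share the estimate of each contig's spread. Over all tested contigs, 58.6% had the same sign in both pairs.

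No contig of the HSP70, HSP90 and small heat shock lists passed between regions of unheated snails in limma over all 16 libraries without the term, and 3 passed when the 4 libraries were left out. Of 6 HSP70, 1 HSP90 and 4 small heat shock contigs (the last list holds by its name pattern an S-crystallin, a lens protein), limma and edgeR called 0 and DESeq2 called 1. DESeq2 called 336 of all 14444 tested contigs. In limma 1 heat shock contig had an unadjusted p under 0.05, against 9.25% of all tested contigs. The contig with that p, HSP70 SR_contig_18771_C3.1, had 529 and 232 normalised counts at Aliso Beach and 402 and 979 at La Jolla, against 141 and 147 at Slide Ranch and 412 and 111 at Pigeon Point. The regions overlapped through Pigeon Point control 1, the log2 difference was 1.41 ± 0.42 (SE), and the adjusted p in limma was 0.254, or 0.0417 with the term for the 4 libraries. Another HSP70 (SR_contig_12347_C3.1) had 51.9 and 59.8 at Aliso Beach and 255 and 466 at La Jolla, against 148 and 106 at Slide Ranch and 632 and 88.0 at Pigeon Point. Small heat shock protein 26 (SR_contig_5896_C3.1) had 27.5 and 24.4 at Aliso Beach and 198 and 285 at La Jolla, against 81.8 and 67.9 at Slide Ranch and 379 and 46.4 at Pigeon Point. In both, Aliso Beach was lowest, and La Jolla and Pigeon Point control 1 were highest. These 3 contigs were called higher in the south in limma without the 4 libraries, where La Jolla and Pigeon Point keep 1 control library each and these are taken to vary like the others. HSP70 SR_contig_18771_C3.1 then had a log2 difference of 2.21 (adjusted p = 0.00385), while HSP70 SR_contig_12347_C3.1 had 0.62 (adjusted p = 0.0475) and small heat shock protein 26 had 0.55 (adjusted p = 0.0413), against -0.30 and -0.33 with all libraries. Over all tested contigs, 2.67% were higher in that fit. The most abundant HSP70 (SR_contig_525) averaged 44706 ± 4299.6 in southern and 43980.4 ± 13795 in northern controls, and HSP90 (SR_contig_806_C3.1) averaged 7436 ± 911 in southern and 6886 ± 1726 in northern controls (SD, n = 4 each).

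**Figure D4:**
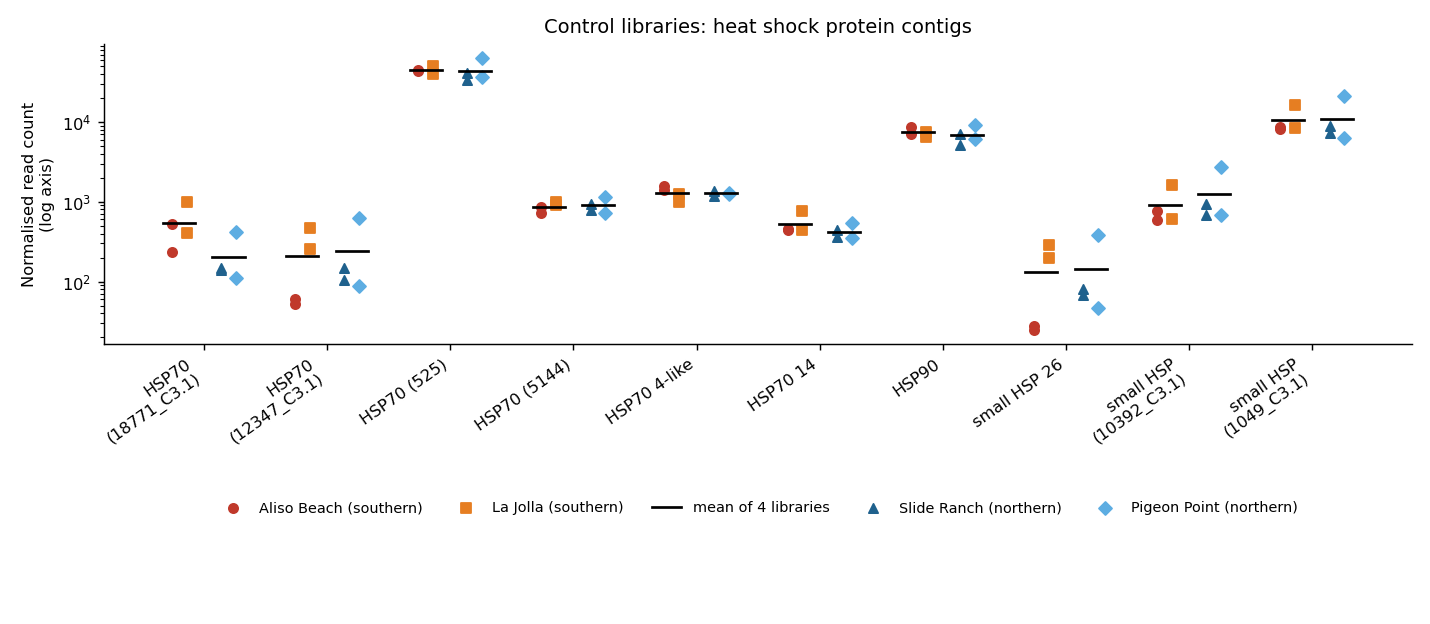
Normalised read counts on a log axis for 10 heat shock contigs in the control libraries, southern sites left and northern sites right, with the mean of 4 libraries as a black bar. For small heat shock protein 26 the 2 Aliso Beach libraries (27.5 and 24.4 normalised counts) lie below all others, and the highest point, 379, is Pigeon Point control 1.

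For the CCT chaperonin, subunits were higher in the south with the term for the 4 libraries. Of the 9 contigs of its list, 8 are CCT subunits and 1 is a T-complex 11-like protein. In limma 0 passed and 4 had an unadjusted p under 0.05, against 9.25% of all tested contigs. Of the same 9, edgeR called 0 and DESeq2 called 2, where DESeq2 called 336 of all 14444 tested contigs. With the term for the 4 libraries 7 of 9 were higher, all of them subunits, against 3.52% of all tested contigs. Without these libraries 3 of 9 were higher, against 2.67%. The epsilon subunit (SR_contig_7767) had 4184, 3775, 4508 and 3239.8 normalised counts in southern controls, against 2489, 1964, 2916 and 1966 in northern controls. The regions did not overlap in that contig. The list median was 0.57, with 0.62 for Aliso Beach minus Slide Ranch and 0.50 for La Jolla minus Pigeon Point. Of 18 HSP40 and co-chaperone contigs 1 was higher with the term, against 3.52% of all tested contigs. It was DNAJC2 (SR_contig_32899), which works at the ribosome, with means of 844 ± 152 in southern and 536 ± 94.3 in northern controls (SD, n = 4 each).

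Of 14 glycolysis contigs limma, edgeR and DESeq2 called 0 each, while 3 had an unadjusted p under 0.05 in limma, against 9.25% of all tested contigs. With the term 4 of the 14 were higher, among them fructose-bisphosphate aldolase (SR_contig_3902) and phosphoglycerate kinase 1 (SR_contig_15668), against 3.52% of all tested contigs. The list median was 0.31. In muscle, 3 of 35 were higher with the term, against the same 3.52%. Troponin I (SR_contig_157_C3.1), the inhibitory subunit of the calcium switch of contraction, averaged 12949.6 ± 2784 in southern and 7067 ± 1592 in northern controls, and troponin C (SR_contig_2105) averaged 1490.2 ± 94.3 in southern and 1043 ± 102 in northern controls (SD, n = 4 each). The median of the muscle list was 0.04. Ribosomal protein and mitochondrial respiration contigs had medians of 0.23 and 0.27, and their highest summed counts were those of La Jolla control 1 in the south and Pigeon Point control 1 in the north, the 2 libraries rich in SR_contig_83.

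Further contigs were called in limma with the term for the 4 libraries but not without it over all 16 libraries, and their regions did not overlap. NEK6 (SR_contig_26852), a kinase of mitosis, had 13809.6, 11897, 37266 and 9226 normalised counts in southern controls, against 768, 2777, 5189 and 8492 in northern controls. Musashi (SR_contig_47416), an RNA-binding regulator of stem cells in other animals, averaged 117 ± 44.4 in southern and 28.3 ± 9.66 in northern controls, and cytochrome P450 1A1 (SR_contig_236117), which oxidises foreign compounds, averaged 67.5 ± 9.10 in southern and 22.0 ± 2.79 in northern controls (SD, n = 4 each). On the lower side were fibroblast growth factor receptor 2 (SR_contig_29023), at 24.1 ± 11.1 in southern and 95.2 ± 17.1 in northern controls, and a fas ligand-like contig (SR_contig_1839_C3.1), related to triggers of cell death, at 43.7 ± 19.8 in southern and 93.5 ± 8.33 in northern controls (SD, n = 4 each). Their adjusted p in limma without the term ran from 0.0804 to 0.173. DESeq2 called all 5 (adjusted p from 0.000224 to 0.00422), while edgeR called none of them. For the 4 other than cytochrome P450 1A1, the adjusted p in edgeR ran from 0.0819 to 0.156. Of 93 apoptosis and survival contigs 3 were higher and 4 lower with the term, which is 3.23% and 4.30% of the list against 3.52% and 1.91% of all tested contigs, and the list median was -0.12. The lists of antioxidant, immune, digestive, shell and mucus, neural, P450, glycan, matrix, ubiquitin and ingested algae contigs had medians between -0.06 and 0.15. Cilia, HSP40, and the folding proteins of the endoplasmic reticulum and mitochondria had medians of 0.14, 0.08 and 0.05, stress transcription factors (a list that holds by its name pattern an AP-1 complex subunit of vesicle coats) -0.12, and blood and oxygen carriers -0.16.

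The regional differences were then read in the heated libraries, which the control comparison takes only into its spread. All 38 called contigs had the same sign there, which held for 10161 of the 14444 tested contigs, and 34 of them passed in limma with that sign, where 168 contigs (1.16% of those tested) were called between southern and northern heated snails. Both comparisons use the same spread for a contig, and the 38 were picked partly for a small one. This by itself favours passing again. In 22 of the 38 the heated libraries did not overlap by region, in the same direction as in controls, and in 7.41% of all tested contigs heated libraries did not overlap in either direction. The median size of the difference was 2.13 (log2) in controls and 2.00 in heated libraries. Vitellogenin averaged 39985 ± 24821 normalised counts in southern and 8289 ± 2910.2 in northern heated snails, and MCM2 (SR_contig_28663) averaged 1893 ± 103 in southern and 859 ± 106 in northern heated snails (SD, n = 4 each). The 4 that did not pass when heated were tripartite motif protein 2 (log2 difference 0.84) and 3 contigs without an informative name. The 10 contigs with 1 site apart all passed again, and the heated snails came from the same 4 sites. No contig was called for a regional difference that changed with heat in limma over all 16 libraries (197 at an unadjusted p under 0.05, 0 in edgeR and 0 in DESeq2). Without the 4 libraries limma called 2, or 0.0138% of those tested, and both are heat shock contigs. Small heat shock protein 26 had 19067.5 and 16194.9 normalised counts at Aliso Beach and 52088.5 and 66595 at La Jolla when heated, against 95610.1 and 92819 at Slide Ranch and 63155 and 72711.8 at Pigeon Point. Every heated library was far above its controls, and Aliso Beach was lowest. The heated minus the control regional difference of this contig (SR_contig_5896_C3.1) was -1.83 (log2; limma, adjusted p = 0.0117) without the 4 libraries and -0.98 (adjusted p = 0.99994) with all. A contig named only as a heat shock protein (SR_contig_18769_C3.1), chosen after its values were seen, was at -2.44 without the 4 libraries. With all libraries it was at -1.08 (limma, adjusted p = 0.99994). Without the 4 libraries, La Jolla and Pigeon Point keep 1 control library each. Controls of this contig had 37.1 and 42.9 normalised counts at Aliso Beach and 109 and 449 at La Jolla. They had 31.3 and 36.9 at Slide Ranch and 520 and 30.7 at Pigeon Point, so -2.44 leans on La Jolla control 2.

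**Figure D5:**
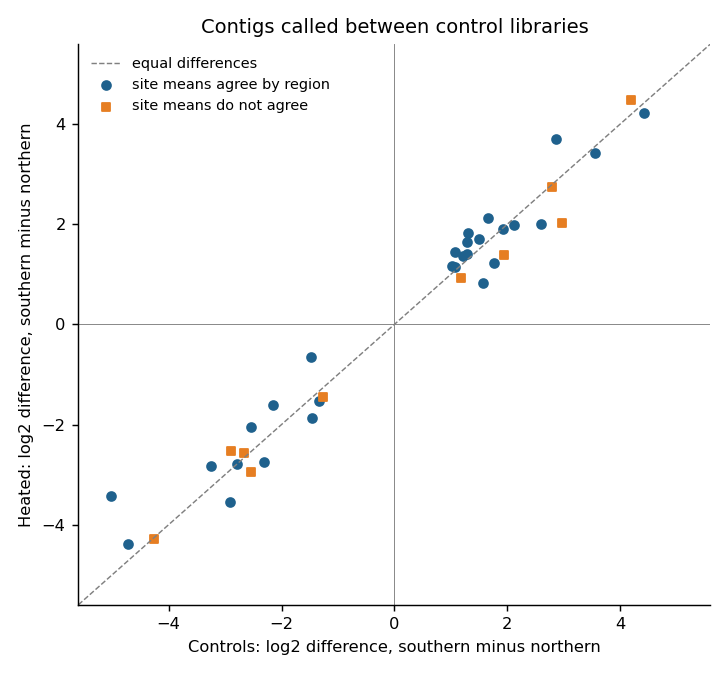
Log2 difference between southern and northern controls (x axis) and between southern and northern heated libraries (y axis) for the 38 contigs called in controls, with circles where site means agree by region, squares where they do not, and a dashed line of equal differences. All 38 lie in the quadrants of equal sign.

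The count of 38 rests on few libraries. In limma, leaving out Slide Ranch control 2 gave 10 calls and leaving out its control 1 gave 12. Aliso Beach control 1 or 2 left out gave 14 or 16, either heated library of Aliso Beach 23, Pigeon Point control 1 15, and La Jolla control 1 or 2 gave 18 or 25. Vitellogenin lost its call without any 1 of the 8 controls or 2 heated Aliso Beach libraries (adjusted p up to 0.170 in limma), and MCM3 without any library except Pigeon Point control 2 (up to 0.265).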

How the data were processed

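RNA from whole snails was sequenced, and the deposited signal values are read counts per contig that the authors divided by a factor for each library, as the steps between values show. CASAVA and DESeq appear, with no version, in the submitters' processing notes. Which assembler, mapper or filter was used is not given in the sources used here. In the deposited signal, 100% of values were whole reads within 0.01 read once divided by the value of 1 read, and the count tests ran on these recovered reads, an alternative to the main test. Control libraries held 17594009 to 23320565 reads and all 16 held up to 26103215. Intervals and floors cover counting error only.

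Contigs with a mean of at least 10 were tested on log2(value + 1) with limma 3.58.1 under R 4.3.3, a trended variance, 8 groups of 2 libraries sharing 1 spread (8 residual degrees of freedom) and Benjamini-Hochberg adjustment at 0.05. Fold changes on this scale understate those of low contigs. Alternatives were edgeR 4.0.16, DESeq2 1.42.0, TMM scaling, recomputed size factors, pseudocounts of 0.5 and 5, no filter or a mean of 50, control libraries only, site as a random effect (correlation 0.152), a replicate block, a term for the 4 libraries that stand apart, and leaving out these, each site or each library. The contrasts between the site pairs' differences and between heated and control regional differences were added after the design had been set. The limma steps were tested on simulated data. Figures were drawn with matplotlib 3.10.9.

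Named contigs were up to 12 called contigs in each direction, by largest difference, with a control mean of at least 50, an informative name and agreeing site means. Fewer than 12 met this in either direction. Others were up to 6 called contigs whose sites did not agree, 2 unnamed ones in each direction, and up to 8 in each direction called with the term but not without it over all libraries, and without overlap. To these came 3 of each list by p, all HSP70, HSP90 and small heat shock contigs, and SR_contig_83. Names counted as uninformative also where they read only "protein", "poly", "isoform a", a nematode CBG name or a zebrafish clone name. Further replication, mitosis, egg and folding contigs, and those picked out for site patterns, were chosen after their values were seen. The members and the 29 name-pattern lists were chosen with earlier results of these data known. No 2 libraries of a group were duplicates, since chi-square per degree of freedom between them was 27.7 or more.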

Additional observations from a re-analysis of the deposited data

Results flagged for a closer look

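In 23 of 224 groups of 4 control libraries (112 contigs, south and north), 1 library lay far from the other 3 by Dixon's criterion, which chance meets in about 1 in 20 groups. Pigeon Point control 1 was the high library more often than any other. It had 412 normalised counts of HSP70 SR_contig_18771_C3.1, 632 of HSP70 SR_contig_12347_C3.1, 2736 of small heat shock protein SR_contig_10392_C3.1, 379 of small heat shock protein 26 (SR_contig_5896_C3.1) and 3384 of mitochondrial stress-70 (SR_contig_6894), where the other 3 northern controls reached at most 147, 148, 939.9, 81.8 and 1717. It was also high for short-chain collagen c4 (SR_contig_2231, 216), 40S ribosomal protein S26 (SR_contig_1788, 61231), a subunit of NADH dehydrogenase (SR_contig_2934, 2517), carbonic anhydrase VII (SR_contig_13884, 4343), an interferon-induced 44-like contig (SR_contig_21687, 47.9) and NADPH-cytochrome P450 reductase (SR_contig_3192_C3.1, 12054). Pigeon Point control 2 was high for MCM2 (SR_contig_28663, 992) and a sialic acid-binding lectin (SR_contig_139399, 33.4), and Slide Ranch control 1 for the CCT zeta subunit (SR_contig_316, 9883).

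In the south, La Jolla control 1 was high for NEK6 (SR_contig_26852, 37266), HSP70 protein 14 (SR_contig_851, 763), small heat shock protein SR_contig_1049_C3.1 (16483), 60S ribosomal protein L7a (SR_contig_931_C3.2, 84479.5) and SR_contig_83 (4379120). Aliso Beach control 1 was high for aurora kinase A (SR_contig_16253, 2057) and arylsulfatase B (SR_contig_56010, 207), and Aliso Beach control 2 for a protein disulfide contig (SR_contig_112600, 228) and a fructose-bisphosphatase (SR_contig_18441, 1719).

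For 7 named contigs the log2 difference of La Jolla minus Pigeon Point was unlike that of Aliso Beach minus Slide Ranch in limma. Those named because their sites did not agree were picked from these same libraries, so their p-values are no separate test. The gap was 8.62 for acyl-binding protein (SR_contig_4897, adjusted p = 1.05e-05), -8.81 for LIM domain-binding 2-like (SR_contig_1832, adjusted p = 1.05e-05), 8.46 for collagen alpha-6 (SR_contig_234, adjusted p = 0.00776) and 6.74 for V-type ATPase subunit d (SR_contig_14447, adjusted p = 0.000624). It was 6.07 for SR_contig_6422_C3.1 (adjusted p = 0.00882), -3.50 for 4-aminobutyrate mitochondrial (SR_contig_1872_C3.1, adjusted p = 0.00388) and -3.20 for a beta-xylanase (SR_contig_3597_C3.1, adjusted p = 0.0131).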

How the results depend on the processing

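The 38 regional calls became 336 in DESeq2, 37 in edgeR, 13 with control libraries only, 5 with site as a random effect, 785 with the term for the 4 libraries and 602 without them. They became 3, 44, 71 and 5 without Aliso Beach, La Jolla, Pigeon Point and Slide Ranch. Of the 38, edgeR kept 35 and the fit without La Jolla kept 21. The regional calls ranged from 10 to 51 when single libraries were left out. Aliso Beach minus Slide Ranch (49) became 288, 19, 497 and 997 in DESeq2, control libraries only, with the term and without the 4 libraries, with 9 to 58 when single libraries were left out. La Jolla minus Pigeon Point (19) became 72, 7, 96 and 68 in that order, with 6 to 20. La Jolla minus Aliso Beach (20) became 75, 9, 82 and 69, with 6 to 27, and 11 with a mean of at least 50. Pigeon Point minus Slide Ranch (20) became 115 in DESeq2, 89 with the term and 86 without the 4 libraries, with 8 to 26. The heated regional calls (168) became 785 in DESeq2, 22 with site as a random effect, 2019 with the term, 1354 without the 4 libraries, and 6, 322 and 9 without Aliso Beach, Pigeon Point and Slide Ranch, with 23 to 351. The 905 contigs without overlap became 1078 to 2443 when a control library was left out, since fewer libraries overlap less, and this alternative was chosen after seeing the data. The term for the 4 libraries left the regional log2 differences as they were and changed the estimate of their spread. The cause of the other shifts was not tested. With the replicate block the regional calls were 71 in controls and 282 in heated libraries, and those of Pigeon Point minus Slide Ranch 34. Same-numbered controls correlated from -0.119 to 0.594 in their deviations, highest for La Jolla with Pigeon Point. Not every pair was over 0.1, and the labels do not say whether a number marks a shared batch.

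Signs turned in 5 of the 38 called contigs when the site that stood apart was left out, namely SR_contig_1832 (4.20 with all sites) at -0.32 without Slide Ranch, SR_contig_14447 (-2.89) at 0.52 and SR_contig_13304_C3.1 (-2.54) at 0.32 without Aliso Beach, SR_contig_1872_C3.1 (-1.26) at 0.29 without La Jolla and SR_contig_2042_C3.1 (2.80) at -0.48 without Pigeon Point. The other turned signs among the contigs named in the text were in contigs not called over all libraries. Without Aliso Beach they were SR_contig_12347_C3.1 (0.999), SR_contig_2239_C3.1 (-0.19), SR_contig_5144 (0.083), SR_contig_5896_C3.1 (1.24), SR_contig_24241 (0.12), SR_contig_3192_C3.1 (0.49), SR_contig_2581_C3.1 (0.028) and SR_contig_83 (0.47). Without Pigeon Point they were SR_contig_12347_C3.1 (0.15), SR_contig_10392_C3.1 (0.029), SR_contig_5896_C3.1 (0.084), SR_contig_24241 (0.069), SR_contig_473_C3.1 (-0.013) and SR_contig_993_C3.2 (0.076). Without Slide Ranch they were SR_contig_525 (-0.13), SR_contig_806_C3.1 (-0.031), SR_contig_1049_C3.1 (-0.20), SR_contig_6894 (-0.054) and SR_contig_3597_C3.1 (-0.48), and without La Jolla SR_contig_1049_C3.1 (-0.18). Without the 4 libraries they were SR_contig_12347_C3.1 (0.62), SR_contig_5144 (0.080), SR_contig_5896_C3.1 (0.55) and SR_contig_24241 (0.42), and SR_contig_1049_C3.1 was at -0.034 in DESeq2 and -0.020 in edgeR. With single libraries left out, values ran from -1.01 to 0.40 for SR_contig_12347_C3.1, -0.063 to 0.096 for SR_contig_2239_C3.1, -0.13 to 0.27 for SR_contig_525, -0.22 to 0.11 for SR_contig_5144, -0.0073 to 0.28 for SR_contig_806_C3.1 and -0.85 to 0.15 for SR_contig_10392_C3.1. They ran from -1.08 to 0.42 for SR_contig_5896_C3.1, -0.38 to 0.50 for SR_contig_1049_C3.1, -0.52 to 0.40 for SR_contig_24241, -0.073 to 0.49 for SR_contig_6894, -0.16 to 0.46 for SR_contig_5906 and -1.50 to 0.29 for SR_contig_83. The heated comparison with control libraries only could not be fitted.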
